A study of Mus musculus with 6 samples.

Results

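The transcripts described here are 32 genes that mark blood cells outside the B lineage, among the 54752 genes quantified in cultures of bone marrow B cell progenitors and in the RNA pulled down with LIN28B from them. They were chosen by name: 14 genes of neutrophils and monocytes (myeloid), 10 of T, NK and innate lymphoid cells, 4 of red cell precursors (erythroid) and 4 of platelets and mast cells. All 32 were found in the deposited values. There were 2 adult tet-LIN28B mice, which carried 1 Col1a tetO-LIN28B allele for a FLAG-tagged human LIN28B cDNA and the Rosa26 rtTA*m2 activator that switches it on with doxycycline (Dox). The control was 1 littermate with Rosa26 rtTA*m2 but no tetO-LIN28B allele, so an anti-FLAG IP from it held no tagged protein. All 3 marrows were treated alike: red cells were lysed, adherent cells were removed by plating, and the remaining cells grew in IL-7 (20 ng/mL) plus Dox over 5 days. Each mouse gave 1 anti-FLAG IP and 1 input, a part of the same lysate, so there were 6 libraries in all.

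Each blood lineage makes a small set of proteins that other lineages hardly make, and their mRNAs are used to detect a few such cells among many. Neutrophils are packed with granule proteins and with the calcium-binding pair S100A8 and S100A9. T and NK cells carry antigen receptor chains, killer cell receptors and cytotoxic granules, red cell precursors make globins, and platelets and their parent megakaryocytes make chemokines such as platelet factor 4. IL-7 is the growth factor of B cell progenitors and feeds some T and innate lymphoid cells too. LIN28B, made mostly in fetal life, binds RNA: it stops let-7 microRNAs from maturing and also attaches to mRNAs, and its zinc knuckles are known to recognise GGAG in RNA. Some of the 32 genes mark more than 1 lineage: Gata1 is shared by erythroid cells, megakaryocytes and mast cells, and Gata2 by mast cells and early progenitors.

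GGAG was present in the coding sequence of 100% of the 26 protein-coding members tested, as in 98.8% of all 10220 protein-coding genes tested. The windows of 30 nt below show 1 GGAG of the coding sequence, the most 5′ with room for the window, in members at both ends of the IP results, 4 that fell in the tet-LIN28B IPs and 2 transcription factor genes whose level was above input in both of them. GGAG is in capitals. The sequences are those of GENCODE M21 transcripts on GRCm38, read 5′ to 3′ as RNA sense in DNA letters. A match is a description of the letters and not a binding site.
S100a8 (chromosome 3, plus strand): tgccgtctgaactGGAGaaggccttgagca
Elane (chromosome 10, plus strand): cctgcagaggcgtGGAGgtcatttctgtgg
Nkg7 (chromosome 7, plus strand): accagtatgagatGGAGccagactccattt
Hba-a1 (chromosome 11, plus strand): tggtgctgaatatGGAGctgaagccctgga
Gata2 (chromosome 6, plus strand): cgcataactacatGGAGccagcacagctgc
Gata3 (chromosome 2, minus strand): ccgacccaccacgGGAGccaggtatgccgc

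The cultures were of the B lineage by their defining markers. The surrogate light chain gene Vpreb1 was at 3112 and 3364 FPKM in inputs from tet-LIN28B mice and at 3012 FPKM in the control input, and the 20 genes of a B cell progenitor list summed to 13592 and 16170 FPKM in inputs from tet-LIN28B mice and to 17192 FPKM in the control input. FPKM scale fragments by transcript length and by library depth. Mouse Lin28b was at 0.62 and 1.03 FPKM in inputs from tet-LIN28B mice and at 0.01 FPKM in the control input. How far reads of the human transgene add to these values is unknown. Counts were not used here, but low FPKM values fell near whole multiples of a smallest step, which put each library at about 14500000 to 21600000 fragments, with 88.6% to 91.6% of the values within 0.15 of a whole multiple. Summed over all genes, the libraries held 1144868 FPKM (control IP) to 1384941 FPKM (control input).

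The marker transcripts were a small part of each culture, led by neutrophil genes. All 32 together summed to 9148 and 5458 FPKM in inputs from tet-LIN28B mice, 0.692% and 0.400% of all FPKM, and to 7339 FPKM in the control input, 0.530%. The myeloid members held most of this, with 8143 and 4936 FPKM in inputs from tet-LIN28B mice and 6818 FPKM in the control input. Those of platelets and mast cells summed to 781.8 and 422 FPKM in inputs from tet-LIN28B mice and 436 FPKM in the control input, of which Pf4 alone made up 98.6% and 98.6% in inputs from tet-LIN28B mice and 98.0% in the control. The T, NK and innate lymphoid members summed to 182 and 73.8 FPKM in inputs from tet-LIN28B mice and 70.2 FPKM in the control input, and the erythroid members to 41.1 and 26.2 FPKM in inputs from tet-LIN28B mice and 13.4 FPKM in the control input. In these bulk libraries fewer cells of a type and less of its RNA per cell cannot be told apart.

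**Figure D1:**
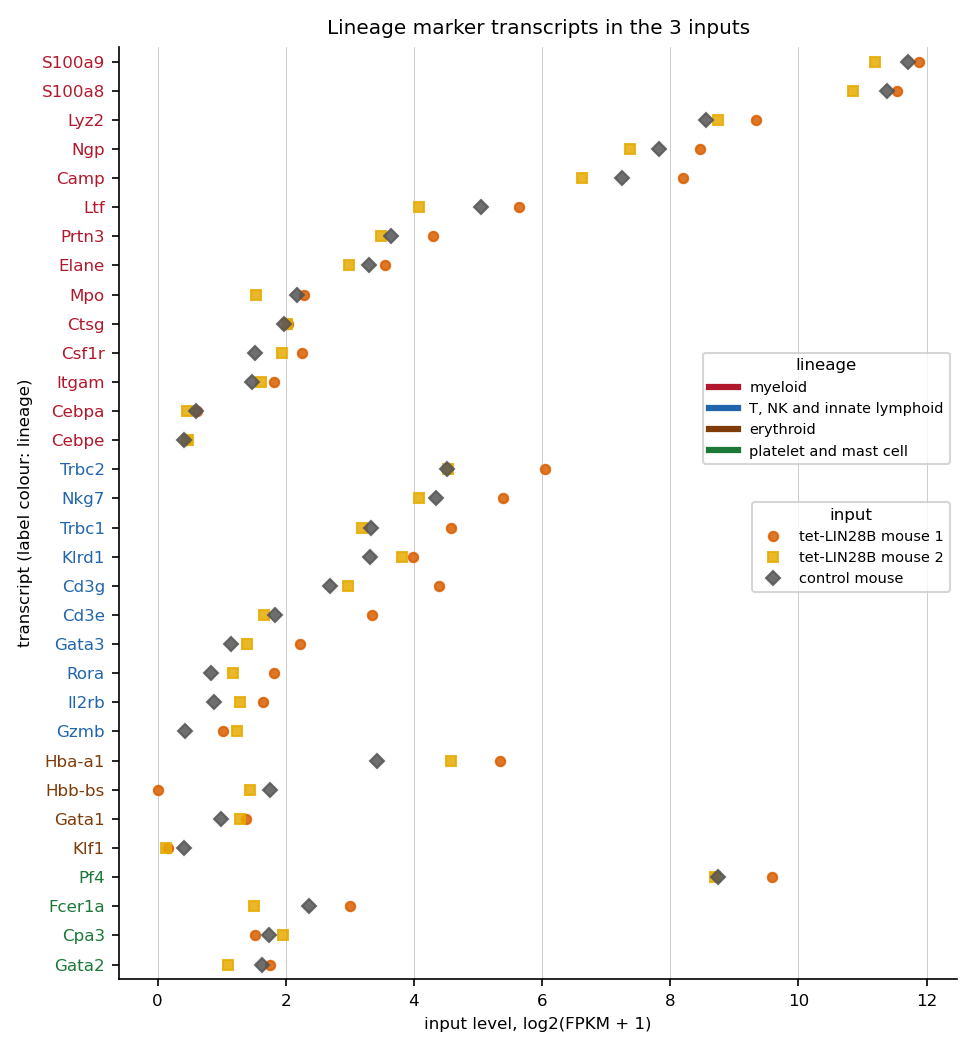
Level of each of the 32 marker transcripts in the inputs as log2(FPKM + 1), with 1 point for each of the 2 tet-LIN28B mice and for the control mouse, and transcript names coloured by lineage. S100a9 and S100a8 are at the top of the range in all 3 inputs, 4 transcripts average under 1 FPKM, and the circles of tet-LIN28B mouse 1 lie right of the squares of mouse 2 for 26 of the 28 tested members.

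By their mean over the 3 inputs, 6 members were at 100 FPKM or more (S100a9, S100a8, Pf4, Lyz2, Ngp and Camp), 8 between 10 and 100 FPKM, 14 between 1 and 10 FPKM and 4 under 1 FPKM. S100a9 was at 3770 and 2355 FPKM in inputs from tet-LIN28B mice and 3335 FPKM in the control input, and its partner S100a8 at 2989 and 1848 FPKM in inputs from tet-LIN28B mice and 2667 FPKM in the control input. For both genes the control lay between the tet-LIN28B mice. The 4 genes under 1 FPKM were Gzmb, the serine protease granzyme B of killer cells, Cebpa and Cebpe, transcription factors of granulocyte precursors, and Klf1, the transcription factor that switches on globin genes. They ranged from 0.09 FPKM for Klf1 to 1.35 FPKM for Gzmb in the inputs and entered no test.

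No member differed between the tet-LIN28B and the control inputs in limma. The rates were 0% in each direction of the 12576 genes with a mean of at least 1 FPKM over the inputs. At an unadjusted p under 0.05, 680 of these genes (5.41%) and 2 of the 28 tested members passed. The first was Hba-a1, an alpha globin gene, at 39.4 and 22.9 FPKM in inputs from tet-LIN28B mice and 9.73 FPKM in the control input, a log2 difference of 1.54 ± 0.39 (SE, limma adjusted p = 0.835). The second was Klrd1, which encodes the CD94 receptor chain of NK cells, at 14.9 and 13.02 FPKM in inputs from tet-LIN28B mice and 8.96 FPKM in the control input (0.58 ± 0.17, limma adjusted p = 0.835). In both, the tet-LIN28B mice lay above the control.

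Without a test, 12 of 28 members were higher in both tet-LIN28B inputs than in the control input, against 28.6% of all genes, and 1, the beta globin gene Hbb-bs, was lower in both, against 40.5% of all genes. The 12 included 6 of the 9 T, NK and innate lymphoid members tested, such as Il2rb, a receptor chain for IL-2 and IL-15, at 2.12 and 1.43 FPKM in inputs from tet-LIN28B mice and 0.84 FPKM in the control input. The tet-LIN28B mice also differed from each other: 26 of the 28 members were higher in the input of mouse 1 than in that of mouse 2, against 56.1% of all genes, the exceptions being Cpa3 and Hbb-bs. Trbc2, a constant region of the T cell receptor beta chain, was at 65.2 FPKM in mouse 1, 22.03 FPKM in mouse 2 and 21.9 FPKM in the control. Without mouse 1 the summed T, NK and innate lymphoid members were 0.07 above the control input on the log2 scale, where the mean of both mice was 0.87 above it.

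Genes of the same lineages outside the 32 came from lists written by hand. The T cell genes summed to 360 and 265 FPKM in inputs from tet-LIN28B mice and 327 FPKM in the control input. They were led by Tcrg-C1, a T cell receptor gamma constant region, which made up most of each sum. It was at 184 and 189 FPKM in inputs from tet-LIN28B mice and 231 FPKM in the control input. The delta constant region Trdc was at 0.83 and 0.25 FPKM in inputs from tet-LIN28B mice and 0.12 FPKM in the control input. The alpha constant region Trac was at 16.2 and 4.95 FPKM in inputs from tet-LIN28B mice and 5.66 FPKM in the control input. Which cells the Tcrg-C1 transcript came from was not tested. The NK and innate lymphoid genes summed to 210 and 122 FPKM in inputs from tet-LIN28B mice and 112 FPKM in the control input. Of neutrophil genes, 15 of 19 averaged at least 1 FPKM in the inputs, led by Retnlg, a resistin-like secreted protein, at 454 and 386 FPKM in inputs from tet-LIN28B mice and 571 FPKM in the control input. Of mast cell, basophil and eosinophil genes, 8 of 18 did, led by Prss34, a basophil protease, at 38.6 and 30.6 FPKM in inputs from tet-LIN28B mice and 35.1 FPKM in the control input, while the 4 mast cell proteases Mcpt4, Cma1, Tpsb2 and Tpsab1 were listed at 0 in all 3 inputs. Of erythroid genes, 4 of 12 did, led by Car2, a carbonic anhydrase also made outside the erythroid lineage, at 72.4 and 63.5 FPKM in inputs from tet-LIN28B mice and 87.8 FPKM in the control input, and by Tfrc, the transferrin receptor of dividing cells. Slc4a1 and Car1 were listed at 0 in all 3 inputs, and Alas2 and Rhag were below 0.1 FPKM. Of stromal genes, 7 of 11 were below 0.1 FPKM in all 3 inputs. Genes named for being at or near 0 were chosen after their values were seen.

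The LIN28B IPs held less of the non-B markers than their inputs. Of the 28 members tested, 14 fell in the tet-LIN28B IPs relative to input, against 28.4% of the 12511 genes with a mean of at least 1 FPKM over the 6 libraries, and 0 rose, against 13.3%. At an unadjusted p under 0.05 in limma 21 members were lower and 0 higher, against 53.6% of all genes in either direction. With IP and input not paired by mouse 9 of 28 members and 28.1% of all genes fell, the calls on S100a9, Ltf, Trbc1, Cd3e and Pf4 being lost. With no filter on low values 0 of 26505 genes passed, members included. The median log2 ratio of IP to input was -0.89 over the 28 members and -0.26 over all genes tested in the tet-LIN28B mice, and -0.43 and 0.06 in the control mouse. Summed over all 32, the IP held 0.363 ± 0.017 of the input FPKM in the tet-LIN28B mice (SD, n = 2) and 0.485 in the control mouse. The control IP contained no tagged LIN28B, yet the log2 ratio was below 0 for 21 of 28 members there, against 44.2% of all genes. It was below 0 in both tet-LIN28B mice for 22 of 28 members, against 52.1%, and in all 3 mice for 18 of 28, against 31.1%.

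**Figure D2:**
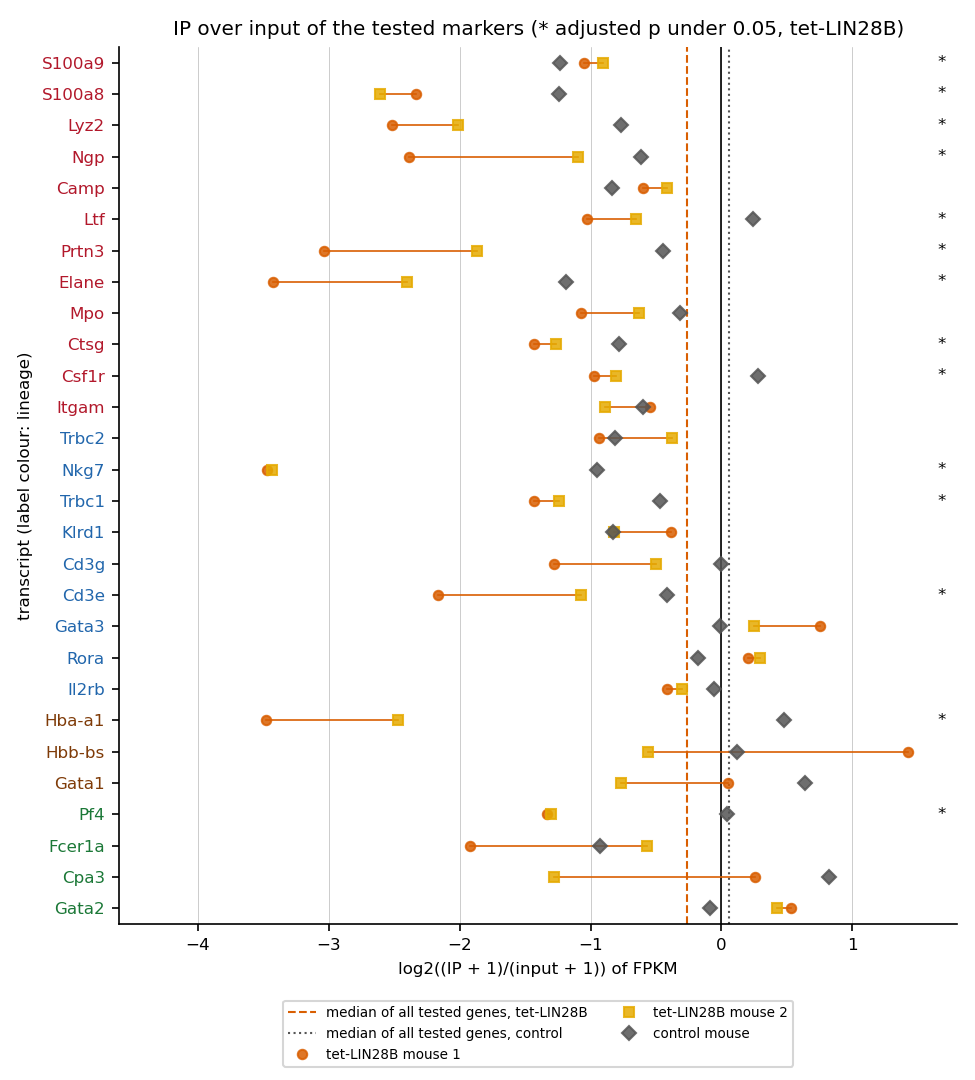
log2 of IP over input FPKM, with 1 added to each value, for the 28 tested markers in each of the 2 tet-LIN28B mice (joined by a line) and in the control mouse, with the medians of all tested genes as vertical lines and an asterisk where the adjusted p was under 0.05 in the tet-LIN28B mice. The 14 markers with an asterisk lie left of 0 in both tet-LIN28B mice, and Gata3, Rora and Gata2 lie right of 0 in both.

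The myeloid members gave the largest share of calls. Of the 12 tested, 9 fell in the tet-LIN28B IPs, against 28.4% of all genes. All 12 had a log2 ratio below 0 in both tet-LIN28B mice, against 52.1%, with a median of -1.16. In the control mouse 10 of the 12 were below 0 too, against 44.2% of all genes, with a median of -0.69. S100a8 (chr3:90668978-90670035 on GRCm38), a chain of calprotectin, was at 591 and 303 FPKM in tet-LIN28B IPs, against 2989 and 1848 FPKM in their inputs, and at 1127 FPKM in the control IP, against 2667 FPKM in the control input. Its IP/input ratios were 0.198 and 0.164 for tet-LIN28B mice and 0.423 for the control mouse, so all 3 IPs were below input and both tet-LIN28B ratios were below the control's (-2.47 ± 0.16 on the log2 scale in tet-LIN28B mice, SE, limma adjusted p = 0.0072). S100a9 (chr3:90692632-90695721), its partner chain, was at 1819 and 1259 FPKM in tet-LIN28B IPs and 1415 FPKM in the control IP. Its ratios of 0.483 and 0.534 for tet-LIN28B mice and 0.424 for the control mouse were all below 1, but here both tet-LIN28B ratios lay above the control's (-0.98 ± 0.15, limma adjusted p = 0.018).

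Lyz2 (chr10:117277331-117282321), lysozyme of neutrophils and macrophages, was at 112 and 105 FPKM in tet-LIN28B IPs, against 646 and 428 FPKM in their inputs, and at 221 FPKM in the control IP, against 376 FPKM in the control input. The tet-LIN28B ratios were 0.173 and 0.245 and the control ratio was 0.587, with no overlap (-2.27 ± 0.19, limma adjusted p = 0.0083). Of the proteases of the early azurophil granule all 3 fell. Elane, neutrophil elastase, was at 0.09 and 0.50 FPKM in tet-LIN28B IPs, against 10.7 and 6.95 FPKM in their inputs, and at 3.33 FPKM in the control IP, against 8.86 FPKM in the control input. In tet-LIN28B mouse 1 this was about 1 fragment in the IP against 156 in the input, a ratio of 0.0084 with an exact 95% counting interval of 0.00021 to 0.048, and the log2 change over both mice was -2.92 ± 0.33 (limma adjusted p = 0.011). Prtn3, proteinase 3, was at 1.4 and 2.06 FPKM in tet-LIN28B IPs, against 18.7 and 10.2 FPKM in their inputs, and at 8.15 FPKM in the control IP, against 11.5 FPKM in the control input (-2.45 ± 0.35, limma adjusted p = 0.015). For both proteases the tet-LIN28B ratios lay below the control's. Ctsg, cathepsin G, also fell (-1.35 ± 0.22, limma adjusted p = 0.019), while Mpo, myeloperoxidase of the same granule, had a log2 change of -0.85 (limma adjusted p = 0.057).

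Of the 3 proteins of the later, specific granule, the transcripts of Ngp and Ltf fell. Ngp, neutrophilic granule protein, was at 66.6 and 76.2 FPKM in tet-LIN28B IPs, against 352 and 164 FPKM in their inputs, and at 147 FPKM in the control IP, against 226 FPKM in the control input. The mice differed here, with log2 ratios of -2.38 and -1.10 (mean -1.74, limma adjusted p = 0.030). Ltf, the iron-binding lactoferrin, was at 23.4 and 9.78 FPKM in tet-LIN28B IPs, against 48.9 and 15.9 FPKM in their inputs (-0.84, limma adjusted p = 0.032), and at 38.0 FPKM in the control IP, against 31.96 FPKM in the control input. It was thus below input in both tet-LIN28B mice and above input in the control, and its call was lost with TPM scaling (limma adjusted p = 0.056). Camp, precursor of the antimicrobial peptide cathelicidin, was at 193 and 72.9 FPKM in tet-LIN28B IPs, against 293 and 97.6 FPKM in their inputs, and at 84.3 FPKM in the control IP, against 152 FPKM in the control input. Its log2 change of -0.51 did not pass (limma adjusted p = 0.063), and its tet-LIN28B ratios of 0.658 and 0.747 lay above the control ratio of 0.556.

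Of the monocyte and macrophage markers, Csf1r, the receptor for the macrophage growth factor M-CSF, was at 1.44 and 1.21 FPKM in tet-LIN28B IPs, against 3.79 and 2.86 FPKM in their inputs (-0.89, limma adjusted p = 0.041), and at 2.48 FPKM in the control IP, against 1.87 FPKM in the control input. The call on Csf1r was lost with a pseudocount of 0.1, with TPM scaling, with centred ratios and with no filter (limma adjusted p of 0.031 to 0.18 over the alternatives). Part of its exons overlap Hmgxb3 on the opposite strand, and libraries of this kind do not mark strand, so 17.7% of its 50-nt stretches cannot be told apart. Itgam, the integrin chain CD11b of neutrophils and macrophages, had a log2 change of -0.72 (limma adjusted p = 0.083), and 73.9% of its 50-nt stretches are shared with the gene model Gm49368.

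Among the T, NK and innate lymphoid members 3 of 9 fell and 0 rose, a share near the 28.4% of all genes that fell, and 1 of 9 fell with IP and input not paired. Nkg7 (chr7:43437073-43438249), a membrane protein of cytotoxic granules, was at 2.78 and 0.57 FPKM in tet-LIN28B IPs, against 40.9 and 16.0 FPKM in their inputs, and at 9.44 FPKM in the control IP, against 19.2 FPKM in the control input. Its ratios of 0.068 and 0.036 for tet-LIN28B mice were both below the control ratio of 0.491, and its change of -3.45 ± 0.17 was the lowest of all 28 members (limma adjusted p = 0.0072). Klrd1, another NK cell gene, was at 11.2 and 6.94 FPKM in tet-LIN28B IPs, against 14.9 and 13.02 FPKM in their inputs, and at 4.61 FPKM in the control IP, against 8.96 FPKM in the control input. Its ratios of 0.749 and 0.533 for tet-LIN28B mice both lay above the control ratio of 0.515 (-0.60, limma adjusted p = 0.083). The difference between these NK cell genes was not tested.

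Of the 4 members that encode chains of the T cell receptor complex, Cd3e and Trbc1 fell. Cd3e, a signalling chain of the complex, was at 1.26 and 0.50 FPKM in tet-LIN28B IPs, against 9.13 and 2.15 FPKM in their inputs, and at 1.67 FPKM in the control IP, against 2.56 FPKM in the control input. All 3 log2 ratios were below 0, with -2.16 and -1.07 in the tet-LIN28B mice (mean -1.62, limma adjusted p = 0.033) and -0.42 in the control. Cd3g, its neighbour and partner chain, was at 7.61 and 4.54 FPKM in tet-LIN28B IPs, against 19.9 and 6.82 FPKM in their inputs (-0.89, limma adjusted p = 0.065), and at 5.42 FPKM in the control IP, against 5.43 FPKM in the control input. Trbc1 fell (-1.34, limma adjusted p = 0.014) and Trbc2 had a log2 change of -0.66 (limma adjusted p = 0.075), but these receptor beta constant regions share sequence: 61.1% of the 50-nt stretches of Trbc1 also occur in Trbc2. Their sum was at 41.5 and 19.6 FPKM in tet-LIN28B IPs, against 88.2 and 30.1 FPKM in their inputs, and at 18.2 FPKM in the control IP, against 30.9 FPKM in the control input, and its IP/input ratios of 0.471 and 0.649 for tet-LIN28B mice lay on either side of the control's 0.590. Among further chains of the complex outside the members, Cd3d rose (0.95, limma adjusted p = 0.034). Its ratios were 1.66 and 2.55 for tet-LIN28B mice and 0.577 for the control mouse. Trac fell (-0.88, limma adjusted p = 0.042), and Cd247 had a log2 change of 0.23 (limma adjusted p = 0.51).

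The transcription factor genes of this group did not fall. Gata3, which directs T cell and type 2 innate lymphoid fate, was at 6.87 and 2.12 FPKM in tet-LIN28B IPs, against 3.67 and 1.62 FPKM in their inputs, and at 1.19 FPKM in the control IP, against 1.21 FPKM in the control input. Rora, a nuclear receptor needed for innate lymphoid cells, was at 3.05 and 1.79 FPKM in tet-LIN28B IPs, against 2.52 and 1.27 FPKM in their inputs, and at 0.58 FPKM in the control IP, against 0.79 FPKM in the control input. With Gata2 (chr6:88193891-88207032), a factor of mast cells and progenitors at 3.85 and 1.88 FPKM in tet-LIN28B IPs, against 2.36 and 1.15 FPKM in their inputs, and at 1.92 FPKM in the control IP, against 2.11 FPKM in the control input, these were the 3 members with a log2 ratio above 0 in both tet-LIN28B mice, as were 31.6% of all genes. None of the 3 passed the test: the log2 changes were 0.50 for Gata3, 0.25 for Rora and 0.48 for Gata2, with limma adjusted p of 0.17, 0.41 and 0.15.

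Of the erythroid members 1 of 3 fell, against 28.4% of all genes. Hba-a1 (chr11:32283511-32284465) was at 2.63 and 3.32 FPKM in tet-LIN28B IPs, against 39.4 and 22.9 FPKM in their inputs, and at 13.9 FPKM in the control IP, against 9.73 FPKM in the control input. The tet-LIN28B ratios of 0.067 and 0.145 and the control ratio of 1.43 lay on opposite sides of 1 (-2.97 ± 0.31 in tet-LIN28B mice, limma adjusted p = 0.010). It shares 67.5% of its 50-nt stretches with its copy Hba-a2, and the sum of both copies gave ratios of 0.0694 and 0.146 for tet-LIN28B mice and 1.32 for the control. Hbb-bs was listed at 0 in the input of tet-LIN28B mouse 1 and between 0.84 and 2.68 FPKM elsewhere, and Gata1 between 0.43 and 2.08 FPKM, with tet-LIN28B ratios on either side of 1.

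Of the platelet and mast cell members 1 of 4 fell, against 28.4% of all genes, and 0 of 4 with IP and input not paired. Pf4 (chr5:90772435-90773383), platelet factor 4, was at 306 and 168 FPKM in tet-LIN28B IPs, against 770.5 and 416 FPKM in their inputs, and at 440.3 FPKM in the control IP, against 428 FPKM in the control input. The tet-LIN28B ratios of 0.397 and 0.404 were close to each other and the control ratio was 1.03 (-1.32 ± 0.14, limma adjusted p = 0.011). Fcer1a, a chain of the high-affinity IgE receptor, was at 1.12 and 0.91 FPKM in tet-LIN28B IPs, against 7.03 and 1.83 FPKM in their inputs, and at 1.70 FPKM in the control IP, against 4.13 FPKM in the control input (-1.24, limma adjusted p = 0.078). Cpa3, mast cell carboxypeptidase, had ratios of 1.29 and 0.210 for tet-LIN28B mice and 2.09 for the control.

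**Figure D3:**
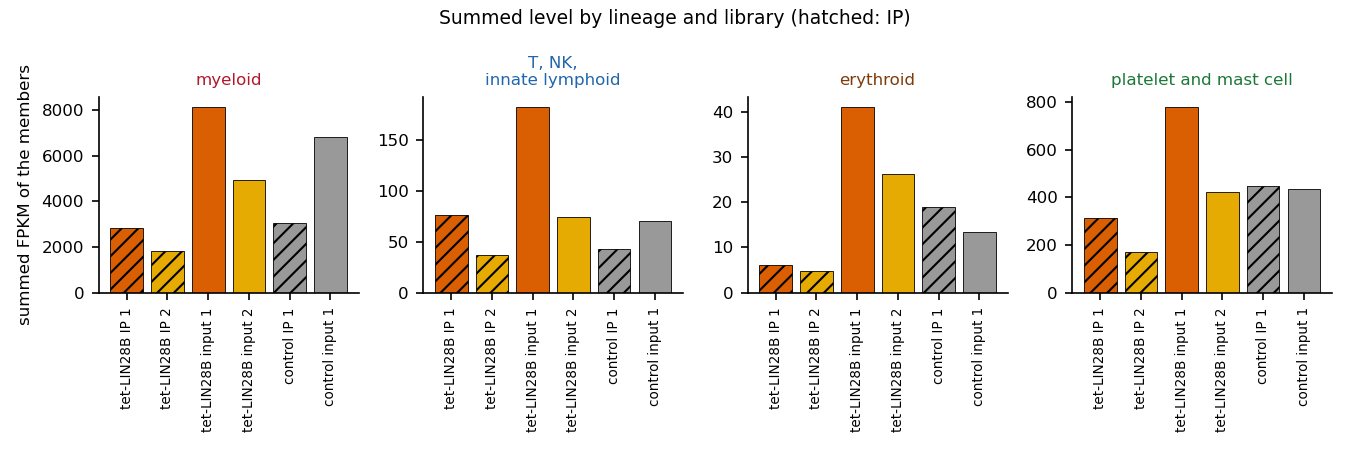
Summed FPKM of the marker transcripts of each lineage in the 6 libraries, with 1 bar per library, IPs hatched, and a separate vertical scale for each lineage. In both tet-LIN28B mice the IP bar is below the input bar in all 4 lineages, whereas in the control mouse this is so for the myeloid and the T, NK and innate lymphoid sums only.

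Summed by lineage, the IP held less of the input in the tet-LIN28B mice than in the control mouse for all 4 lineages. This direction was also that of genes at large. Over all 12511 genes the median difference in log2 ratio, tet-LIN28B minus control, was -0.38, and 59.6% had both tet-LIN28B ratios below the control's. It held 0.358 ± 0.018 of the myeloid input FPKM in the tet-LIN28B mice (SD, n = 2) and 0.448 in the control mouse, and 0.459 ± 0.061 of the T, NK and innate lymphoid input for tet-LIN28B mice and 0.602 for the control mouse. For the erythroid members the ratios were 0.163 ± 0.024 for tet-LIN28B mice and 1.41 for the control mouse, and for platelets and mast cells 0.403 ± 0.0044 for tet-LIN28B mice and 1.03 for the control mouse. These last sums rested on single genes: Hba-a1 made up 43.7% to 95.8% of the erythroid sum and Pf4 97.6% to 98.6% of the platelet and mast cell sum.

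The difference in log2 ratio between tet-LIN28B and control mice passed for 0 of 28 members in limma, as for 0% (lower) and 0.00799% (higher) of the 12511 genes. At an unadjusted p under 0.05 there were 9 members, against 28.9% of all genes: Csf1r, Elane, Hba-a1, Ltf, Lyz2, Nkg7, Pf4, Prtn3 and S100a8, each lower in the tet-LIN28B mice. The differences were -3.45 ± 0.53 for Hba-a1 (limma adjusted p = 0.079), -2.50 ± 0.29 for Nkg7 (limma adjusted p = 0.077) and -1.36 ± 0.25 for Pf4 (limma adjusted p = 0.090). The ratios of both tet-LIN28B mice lay below the control's for 18 of 28 members, against 59.6% of all genes, and above it for 6, against 25%. These 6 were Camp, S100a9, Gata2, Gata3, Klrd1 and Rora.

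This call depended on the filter, which set both the genes tested and the spread used. The study's methods keep genes that reach 50 FPKM in all 4 tet-LIN28B libraries. In the deposited values 1460 genes met this at 50 FPKM or more, and only 6 members were left, namely Camp, Lyz2, Ngp, Pf4, S100a8 and S100a9. There all 6 fell in the IP relative to input, against 35.1% of these genes, and 0 rose, against 35.8%. Relative to the control 4 of 6 were lower for tet-LIN28B, against 22.2%, and 0 higher, against 23.2%. The differences from the control were -1.50 for Lyz2, -1.36 for Pf4, -1.12 for Ngp and -1.23 for S100a8. The spread behind the 6 calls against input and the 4 against the control came almost wholly from the 1460 genes together. It thus does not measure how these mice vary. The log2 change of Camp against input was -0.51 in both fits, with limma adjusted p = 0.0049 here and 0.063 over the 12511 genes. For the difference from the control the SE was 0.30 for Ngp, against 0.62 over the 12511 genes, and 0.36 for S100a8, against 0.28. For Ngp the difference was -1.77 without tet-LIN28B mouse 2 and -0.48 without mouse 1, and over the 12511 genes its unadjusted p in limma was 0.15. S100a9 and Camp differed by 0.26 and 0.33 and did not pass (limma adjusted p = 0.62 and 0.38).

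The members were short transcripts, and transcript length went with the IP ratio across genes. The median length of the 26 protein-coding members tested was 1124 nt, against 2842 nt for all protein-coding genes tested. Across the 10220 genes, which are not independent replicates and share libraries and depth, Spearman's rho between length and the tet-LIN28B log2 ratio was 0.35, and across the 26 members 0.47. Of genes under 1000 nt, 54.9% fell in the tet-LIN28B IPs and the median log2 ratio was -1.04, and 6 of the 10 members in this class fell, with a median of -1.28. Between 1000 and 2000 nt 45.0% of genes and 5 of 8 members fell, with medians of -0.66 for all genes and -1.48 for the members. Between 2000 and 4000 nt 25.0% of genes and 1 of 5 members fell, with medians of -0.21 for all genes and 0.25 for the members. At 4000 nt and above 10.2% of genes and 1 of 3 members fell, with medians of 0.14 for all genes and -0.72 for the members. The part of length in the fall of these markers was not tested. Gata2 and Gata3, above input in both tet-LIN28B mice, were 3571 and 3215 nt long, and S100a8, Nkg7 and Hba-a1 were 486, 881 and 699 nt long. GGAG per kilobase of transcript was 7.12 at the median of the members and 6.95 at that of all genes, with rho of 0.09 and -0.01 against the ratio.

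**Figure D4:**
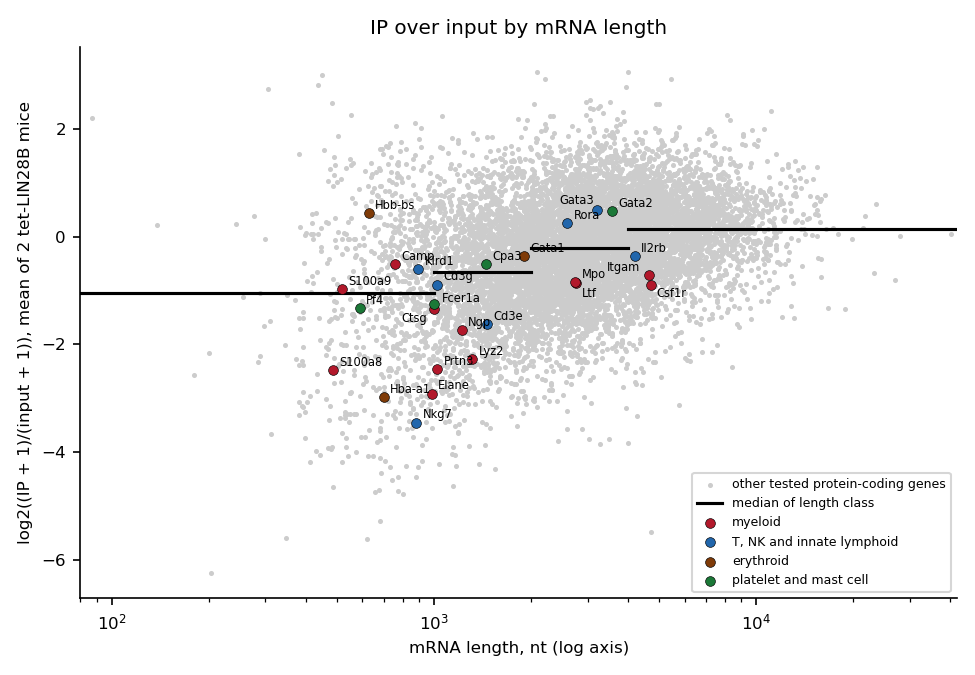
log2 of IP over input, with 1 FPKM added to each value, as the mean of the 2 tet-LIN28B mice against transcript length (log axis) for the 10220 tested protein-coding genes in grey and the 26 members among them in the colour of their lineage, with black lines at the median of 4 length classes. Class medians go up with length, the members are mostly short, and Nkg7, Hba-a1, Elane, S100a8 and Prtn3 lie well below the median of their class.

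By the place of the encoded protein, as textbook knowledge gives it, 10 of 18 secreted, granule or membrane protein genes fell (median log2 ratio -1.07). So did 3 of 8 genes for cytosolic or nuclear proteins, namely S100a8, S100a9 and Hba-a1 (median -0.06). Of all genes 28.4% fell, and the share of the 8 was near that. The difference between the groups was not tested. The median lengths of these groups were 1124 and 1300 nt, but the groups were not matched for length. Of the 8 genes, S100a8, S100a9, Hbb-bs and Hba-a1 were 486 to 699 nt long, and Gata1, Rora, Gata3 and Gata2 were 1902 to 3571 nt long. Both T cell receptor constant regions are not counted here. Of the 4 nuclear factors tested, Gata1, Gata2, Gata3 and Rora, 0 fell and 0 rose in limma.

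Other genes of these lineages were counted too. In the tet-LIN28B IPs 8 of 15 other neutrophil genes fell and 0 rose, 9 of 12 monocyte, macrophage and dendritic cell genes fell and 0 rose, and 5 of 11 other T cell genes fell and 1 rose. Of other NK and innate lymphoid genes 2 of 6 fell, of erythroid ones 2 of 4, of platelet ones 3 of 7, and of mast cell, basophil and eosinophil ones 2 of 7, where 1 rose. Of all genes 28.4% fell and 13.3% rose, so several of these shares are near those of all genes. The highest neutrophil genes did not pass, with log2 changes of -0.42 for Retnlg (limma adjusted p = 0.14) and -0.64 for Wfdc21 (limma adjusted p = 0.092). Lcn2, the iron-scavenging lipocalin of neutrophils, was at 3.86 and 2.10 FPKM in tet-LIN28B IPs, against 102.7 and 46.0 FPKM in their inputs, and at 41.8 FPKM in the control IP, against 80.2 FPKM in the control input (-4.17, limma adjusted p = 0.0072). Ppbp, another platelet chemokine precursor, was at 5.76 and 5.82 FPKM in tet-LIN28B IPs, against 89.0 and 59.0 FPKM in their inputs, and at 60.1 FPKM in the control IP, against 58.0 FPKM in the control input, below input in both tet-LIN28B mice and not in the control, as for Pf4 (-3.44, limma adjusted p = 0.0072). Itga2b, the platelet integrin chain and the next highest of that list, had IP/input ratios of 1.43 and 1.44 for tet-LIN28B mice and 3.45 for the control (0.50, limma adjusted p = 0.070).

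A fall in the IP was not particular to other lineages. Of the 20 B cell progenitor genes 9 fell and 4 rose in the tet-LIN28B IPs, against 28.4% and 13.3% of all genes. Their median log2 ratio was -0.52, against -0.26 over all genes. Vpreb3, which binds newly made immunoglobulin chains, was at 212 and 384 FPKM in tet-LIN28B IPs, against 4209 and 5482 FPKM in their inputs, and at 3929 FPKM in the control IP, against 6092 FPKM in the control input. Vpreb1 went the other way, with 8667 and 7919 FPKM in tet-LIN28B IPs, against 3112 and 3364 FPKM in their inputs, and 2737 FPKM in the control IP, against 3012 FPKM in the control input. The shares of B lineage and non-B genes that fell were not compared by a test.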

How the data were processed

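RNA of 3 inputs and 3 anti-FLAG IPs was sequenced (SMART-Seq v4 cDNA, Nextera XT, polyA RNA, no strand mark). The authors mapped them with STAR 2.7.1 (mm10) and obtained gene values with RSEM 1.28, deposited as FPKM; their annotation release is not named in the sources used here. Groups came from sample titles and column names. Sample descriptions end with the name of the other fraction, and this was not followed. Labels give Dox as 0.1 mg/mL and the study's methods in µg/mL. Titles and the study's own legend treat the tet-LIN28B samples as biological replicates from separate mice, although its results text once calls them technical replicates.

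The members and lists were chosen with earlier results of these data known. Tests used limma 3.58.1 (R 4.3.3; Python 3.11.15) on log2(FPKM + 1), two-sided, with a trend on mean expression and Benjamini-Hochberg adjustment over all genes with a mean of at least 1 FPKM (threshold 0.05), and fold changes of low genes are understated on this scale. Of the members 28 of 32 passed this filter and all may be named, with the highest 3 genes of each further list and the highest 5 of the B cell list. Cd3d, Cd247, Trac and Trdc were named as further chains of the T cell receptor complex after their values were seen. The mouse was the block through the ratio log2((IP + 1)/(input + 1)), since IP and input share a lysate. Differences between tet-LIN28B mice in input and IP correlated at 0.123 across genes. With 1 residual degree of freedom (3.81 in all for the ratios over 12511 genes), the spread came mostly from all genes. The single control mouse was taken to vary as much as the tet-LIN28B mice. Under the study's filter the spread came almost wholly from the 1460 genes kept. No pair of the 15 pairs of libraries was identical. Gene positions, lengths and sharing are from GENCODE M21, whose 50-nt stretches were searched across all transcripts. On simulated data, 60% of changes of 1 and 94% of changes of 2 on the log2 scale were recovered for IP against input over 12511 genes, and 13% and 73% for the inputs over 12576 genes. Alternatives changed the filter, pseudocount, scaling, centring, trend, block and mice used. Summing near copies was added after seeing the data. Counting intervals cover counting error only.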

Additional observations from a re-analysis of the deposited data

Results flagged for a closer look

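In 7 markers the log2 ratio of IP to input had one sign in both tet-LIN28B mice and the opposite sign in the control mouse. In limma the difference itself did not pass for any of them over 12511 genes. Lower in the tet-LIN28B mice were Hba-a1, with -3.48 and -2.47 for tet-LIN28B mice and 0.48 for the control (difference -3.45, limma adjusted p = 0.079), and Pf4, with -1.33 and -1.30 for tet-LIN28B mice and 0.04 for the control (difference -1.36, limma adjusted p = 0.090). So were Csf1r, with -0.97 and -0.80 for tet-LIN28B mice and 0.28 for the control (difference -1.17, limma adjusted p = 0.15), and Ltf, with -1.03 and -0.65 for tet-LIN28B mice and 0.24 for the control (difference -1.08, limma adjusted p = 0.13). Higher in the tet-LIN28B mice were Gata2, with 0.53 and 0.42 for tet-LIN28B mice and -0.09 for the control (difference 0.57, limma adjusted p = 0.37), Gata3, with 0.75 and 0.25 for tet-LIN28B mice and -0.01 for the control (difference 0.52, limma adjusted p = 0.46), and Rora, with 0.20 and 0.30 for tet-LIN28B mice and -0.18 for the control (difference 0.43, limma adjusted p = 0.50). For Pf4, Gata3 and Gata2 the control value lay within 0.1 of 0.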

How the results depend on the processing

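Depth was recovered only approximately, and 1 control mouse left its own spread unmeasured. The fall of 14 members in the tet-LIN28B IPs became 0 of 32 with no filter (0 of 26505 genes), 6 of 6 with the study's filter and 9 of 28 with no replicate block, where the calls on S100a9, Ltf, Trbc1, Cd3e and Pf4 were lost, and stayed at 12 to 16 under the other settings with 28 members and at 13 of 15 with a 5 FPKM filter. No member was called higher under any setting. Against the control, 4 of 15 members were lower with a 5 FPKM filter, 1 of 28 with the filter on inputs and 4 of 6 with the study's filter, and 0 under the others. Replicate pairing changed no other call on a member. For the summed log2 ratio of IP to input in the tet-LIN28B mice (all -1.46, myeloid -1.48, T, NK and innate lymphoid -1.13, erythroid -2.62, platelet and mast cell -1.31), TPM scaling gave -1.36, -1.38 and -1.20 for all, myeloid and platelet and mast cell members. Without the highest member the values were -1.97 for all, -2.16 for myeloid, -1.41 for T, NK and innate lymphoid, -0.12 for erythroid and -0.70 for platelet and mast cell members, and as a median over members -0.87, -0.93, -0.77, -0.21 and -0.88 in the same order. Leaving out either tet-LIN28B mouse gave -1.51 to -1.42, -1.53 to -1.43, -1.27 to -0.99, -2.77 to -2.47 and -1.32 to -1.30. In the inputs the summed erythroid difference of 1.33 became -0.57 without Hba-a1 and 0.041 as a median, and leaving out either mouse gave -0.43 to 0.32 for all, -0.47 to 0.26 for myeloid, 0.07 to 1.38 for T, NK and innate lymphoid, 0.96 to 1.62 for erythroid and -0.05 to 0.84 for platelet and mast cell members. Members at 1 FPKM or more numbered 26 and 17 in the tet-LIN28B IPs, 28 and 29 in their inputs, 25 in the control IP and 25 in the control input. At 5 FPKM these were 12 and 9, 17 and 15, 13 and 15, and at 0.5 FPKM 27 in the IP of tet-LIN28B mouse 2. TPM scaling moved the median of all genes in the tet-LIN28B mice to -0.16.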
